A study of Homo sapiens with 24 samples.

Results

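HCC1806 cells whose genome had doubled by mitotic slippage were set against HCC1806 cells doubled by cytokinesis failure, gene by gene. The comparison used the 3 slippage libraries and the 3 cytokinesis failure libraries of that line, 6 of the 24 RNA libraries of the series, and 11467 of the 29744 genes in the tables passed the filter on low counts. HCC1806 is an established line of triple-negative breast cancer, which lacks oestrogen receptor, progesterone receptor and HER2. The slippage population, the cytokinesis failure population and a population doubled by cell fusion were sorted by flow cytometry and expanded, and the parental aneuploid cells served as control, all of them sampled after 48 h of growth from 200000 seeded cells without further treatment. The same 4 populations of MDA-MB-231, a triple-negative line of mesenchymal character, were used to ask whether the difference recurred. The labels describe 1 derived population per route and line with 3 biological replicates, name no agent that induced either route, and do not say whether replicates were separate cultures. Route and population therefore cannot be told apart, and p-values measure the spread between these replicates.

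In mitotic slippage a cell held in mitosis by the spindle checkpoint degrades cyclin B and returns to interphase with its chromosomes unseparated. In cytokinesis failure the chromosomes segregate but the cleavage furrow or the final cut fails, so that a cell with a pair of nuclei results. Both routes leave a cell with doubled chromosomes and doubled centrosomes, a state that can activate the Hippo pathway and the p53 pathway. HCC1806 has basal and squamous keratinocyte features and depends on growth factor signalling through EGFR and ERK, whose immediate targets include AP-1 transcription factors, dual-specificity phosphatases and EGFR ligands.

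Totals of estimated counts were 3167597 to 3708486 in the slippage libraries, with 14745 to 14961 genes detected, and 3829229 to 4030297 in the cytokinesis failure libraries, with 15088 to 15235 genes detected. The slippage libraries were thus all shallower than the cytokinesis failure libraries, and levels are given as CPM, counts scaled to library size with TMM factors, which corrects for depth on average. Replicates differed by more than sampling noise in every pair, the chi-square divided by its degrees of freedom being 1.35 to 1.62, and no library was counted as a duplicate. Summed over 14 epithelial genes of the line, the level was 5027 to 5083 CPM in slippage and 4884 to 4993 CPM in cytokinesis failure. Of the receptor genes, PGR had at most 1 count in any of these 6 libraries, ESR1 13 to 23 counts and ERBB2, the HER2 gene, 110 to 215, and the 3 summed to 35.4 to 49.0 CPM in slippage and 49.5 to 57.6 CPM in cytokinesis failure. The 12 markers of mesenchymal MDA-MB-231 cells summed to 1522 to 1530 CPM in slippage and 1515 to 1561 CPM in cytokinesis failure, mostly CAV1 (2814 to 3873 counts) and MSN, while VIM had at most 2 counts and SPARC 0. Markers of other cell types stayed low in both populations. The 11 fibroblast markers summed to 29.1 to 29.7 CPM in slippage and 30.5 to 31.5 CPM in cytokinesis failure, the 12 immune markers, mostly CD68, to 28.8 to 31.3 and 25.1 to 29.5 CPM, and the 7 endothelial markers to at most 0.287 and 0.781 CPM. PTPRC and PECAM1 had at most 1 count. The part of depth and of these marker levels in the results was not tested.

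At an adjusted p below 0.05 (edgeR quasi-likelihood test with Benjamini-Hochberg adjustment, used for every adjusted p below), 780 genes were called different between the slippage and the cytokinesis failure population, which was 6.80% of those tested. In bulk RNA a changed share of cells and a changed level per cell cannot be told apart. Of these genes, 468 were higher (4.08%) and 312 lower (2.72%) in slippage. Most differences were small: the median absolute log2 change of the called genes was 0.31, and 46 genes differed by at least 2-fold, 35 of them higher and 11 lower. The 3 slippage libraries lay entirely above or below the 3 cytokinesis failure libraries for 747 of the called genes, and for 23.0% of all tested genes. The excess of higher calls depended on the scaling. On log2(TPM + 1) of the deposited TPM, 372 genes were called, 91 higher and 281 lower (24.5% higher, against 60.0% above), with the median of all genes at -0.07, and after setting the median of each library to 1 value 340 were called, 199 higher and 141 lower. Without cytokinesis failure replicate 1 the count was 421 and without slippage replicate 2 it was 476, and DESeq2 called 298.

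**Figure D1:**
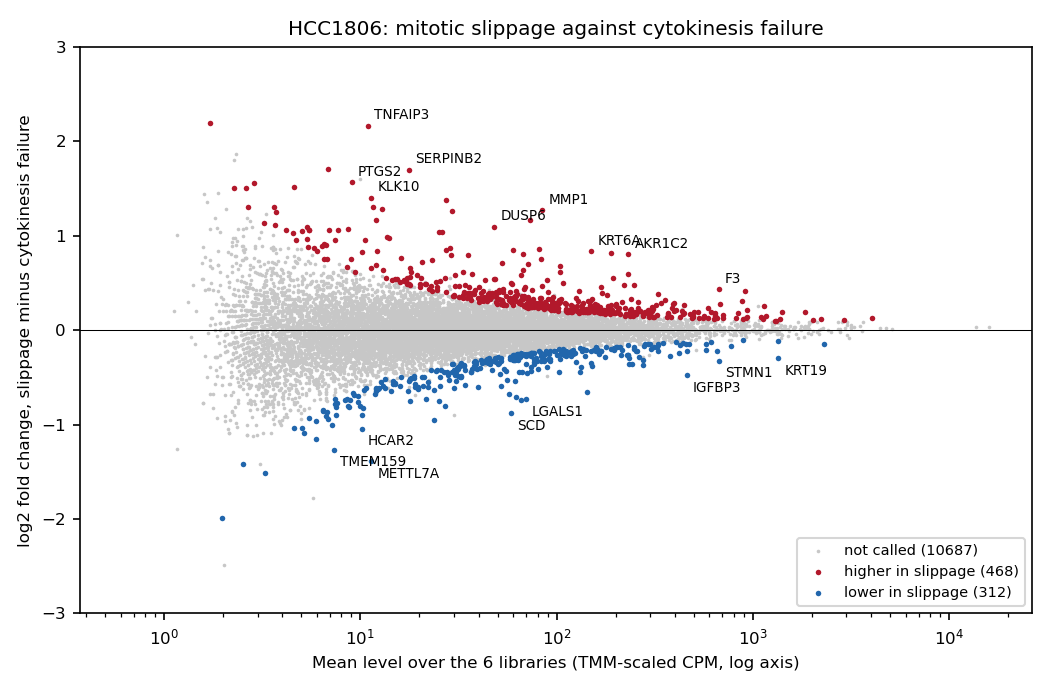
Each point is 1 of the 11467 tested genes, with the mean TMM-scaled CPM of the 6 HCC1806 libraries on a log axis and the log2 fold change of slippage minus cytokinesis failure on the vertical axis; 8 genes lie outside the vertical limits. Red points are the 468 genes called higher and blue points the 312 called lower in slippage, with TNFAIP3 highest among the labelled genes and METTL7A lowest.

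Genes that respond first to growth factor signalling were higher in the slippage population. Of 20 tested immediate early and AP-1 genes, 8 rose and 1 fell, and of 15 tested genes of ERK feedback 8 rose and none fell, with a median log2 change of 0.30 and 0.35 against 0.00 over all tested genes. DUSP6, the phosphatase that switches off ERK, had 66.4, 63.1 and 67.5 CPM in the slippage libraries, against 22.9, 37.3 and 32.1 CPM in the cytokinesis failure libraries. Every slippage library exceeded every cytokinesis failure library, and the log2 change was 1.10 ± 0.10 (adjusted p = 3.69e-14). FOSL1, an AP-1 subunit of the FOS family, stood at 83.6, 71.7 and 76.4 CPM in the slippage libraries, against 41.1, 41.7 and 46.4 CPM in the cytokinesis failure libraries. It rose by 0.84 ± 0.085 on the log2 scale (adjusted p = 4.24e-13), again without overlap. IER3, an immediate early gene that protects from apoptosis, had 293, 272 and 269 CPM in the slippage libraries, against 165, 203 and 184 CPM in the cytokinesis failure libraries. This was a log2 change of 0.60 ± 0.054 (adjusted p = 4.06e-14).

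Other named members of both lists rose too. The transcription factor MYC rose by 0.63 ± 0.078, the ERK phosphatase DUSP4 by 0.99 ± 0.17, the immediate early gene IER2 by 0.36 ± 0.079, the growth factor response gene PHLDA1 by 0.39 ± 0.059 and the ephrin receptor EPHA2 by 0.26 ± 0.052 on the log2 scale (largest adjusted p = 0.00134). MYC had 80.6, 78.7 and 85.9 CPM in the slippage libraries, against 52.8, 53.5 and 51.9 CPM in the cytokinesis failure libraries. SPRY4, which inhibits the RAS branch upstream of ERK, was called too, but its 2 to 3 counts in the cytokinesis failure libraries lie at the floor of detection, so only its 8 to 11 counts in the slippage libraries are given. The calls of IER2 and EPHA2 were lost on log2(TPM + 1). Leaving out each library left 5 to 7 higher calls among the immediate early genes and 6 among the ERK feedback genes, the 5 without cytokinesis failure replicate 3 or slippage replicate 3, whereas DESeq2 called 4 in each list and log2(TPM + 1) 4 and 3.

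Some EGFR ligands rose as well: epiregulin, amphiregulin and TGFA were called higher, whereas the ligands HBEGF, EPGN and NRG1 were tested and not called. Of 11 tested receptors and ligands of the EGFR family, 3 rose and 1 fell (median 0.15), a share of 36.4% against 6.80% of all tested genes. Called or not, 6 members had a positive and 5 a negative log2 change. Epiregulin (EREG) had 84.7, 85.7 and 88.2 CPM in the slippage libraries, against 43.1, 49.8 and 54.4 CPM in the cytokinesis failure libraries. The groups were well apart, with a log2 change of 0.81 ± 0.08 (adjusted p = 1.79e-13). Amphiregulin (AREG), which lies beside EREG on chromosome 4, had 99.4, 104 and 110.1 CPM in the slippage libraries, against 55.3, 66.2 and 64.5 CPM in the cytokinesis failure libraries, a change of 0.75 ± 0.076 (adjusted p = 6.55e-13). TGFA, another ligand of the receptor, rose by 0.33 ± 0.087 (adjusted p = 0.00852), while the receptor tyrosine kinase ERBB2 fell by 0.34 ± 0.10 on the log2 scale, with overlapping libraries (adjusted p = 0.0272). Both weaker calls rest on single libraries: that of TGFA was lost without cytokinesis failure replicate 3 or slippage replicate 2 (adjusted p 0.0557 to 0.0695), and that of ERBB2 without cytokinesis failure replicate 1 or slippage replicate 1 or 3 (0.0791 to 0.277), and DESeq2 and log2(TPM + 1) called neither.

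The gene with the largest rise among those the naming rule covers was TNFAIP3, which encodes the ubiquitin-editing enzyme A20, a target and inhibitor of NF-kB. It had 21.0, 16.9 and 15.6 CPM in the slippage libraries, against 3.98, 4.96 and 2.96 CPM in the cytokinesis failure libraries. Levels in cytokinesis failure cells were far below those of slippage cells, and the log2 change was 2.17 ± 0.22 (adjusted p = 4.24e-13). Prostaglandin-endoperoxide synthase 2 (PTGS2), the inducible cyclooxygenase COX-2, had 14.4, 14.7 and 11.5 CPM in the slippage libraries, against 4.48, 4.96 and 4.20 CPM in the cytokinesis failure libraries, a change of 1.57 ± 0.22 (adjusted p = 1.16e-07). SERPINB2, the plasminogen activator inhibitor of type 2, had 26.1, 24.5 and 30.6 CPM in the slippage libraries, against 6.72, 9.65 and 8.65 CPM in the cytokinesis failure libraries, a change of 1.70 ± 0.16 (adjusted p = 8.47e-14). These 3 genes were at low levels in both populations, and the libraries of the populations did not overlap. F3, which encodes tissue factor, the cell surface initiator of coagulation, was abundant, at 758, 801 and 748 CPM in the slippage libraries, against 552, 579 and 572 CPM in the cytokinesis failure libraries, and rose by 0.44 ± 0.037 (adjusted p = 2.21e-16).

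As lists, the NF-kB genes were only partly shifted. Of 21 tested NF-kB subunits, feedback genes and targets, 4 rose and none fell (median 0.12): TNFAIP3, PTGS2, the subunit RELB (1.14 ± 0.37) and the chemokine gene IL8, now called CXCL8 (0.76 ± 0.25). The calls of RELB and IL8 were each lost on leaving out any of 5 of the 6 libraries (adjusted p 0.0599 to 0.246), both being kept only without the remaining one, slippage replicate 1 for RELB and slippage replicate 2 for IL8. On log2(TPM + 1) RELB and IL8 were not called, and DESeq2 gave none of these 4 an adjusted p, so that it called no member. Of 10 tested genes of prostaglandin synthesis and reception, 4 rose (median 0.17): PTGS2, the prostaglandin E synthase PTGES (0.23 ± 0.038), the phospholipase PLA2G4A that releases arachidonic acid (1.25 ± 0.34), and AKR1C3, a prostaglandin F synthase (0.85 ± 0.13). PLA2G4A lost its call without cytokinesis failure replicate 2 or slippage replicate 1 (adjusted p 0.0595 to 0.124), and PTGES on log2(TPM + 1). Of 17 tested genes of the urokinase system and serpins, SERPINB2 and F3 were the only ones called (median 0.14). Of 14 tested matrix metalloproteinases and their inhibitors, MMP1, the interstitial collagenase, was the only one called, with 114, 120.1 and 123 CPM in the slippage libraries, against 38.1, 52.4 and 57.1 CPM in the cytokinesis failure libraries and a change of 1.27 ± 0.097 (adjusted p = 6.63e-10). The share called in that list, 7.14%, was close to the 6.80% of all tested genes.

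Promoter sequence is shown for KLK10, a kallikrein of the keratinocyte list described below, and for TNFAIP3, SERPINB2, F3 and AREG, which were chosen after their values were seen because they are targets of the AP-1, NF-kB and CREB families. Each window runs from 250 bases before to 50 bases after the transcription start given by RefSeq on GRCh38.p14, 5′ to 3′ on the strand of the gene. Capitals mark matches, on either strand, to TGANTCA (AP-1), GGGNNTTTC (NF-kB), TGACGTCA (the cyclic AMP response element) and TATAAA, the core promoter box that places the start. Of the KLK10 starts, of which the table holds 2, the first is printed.
KLK10, chr19:51019812-51020111, minus strand: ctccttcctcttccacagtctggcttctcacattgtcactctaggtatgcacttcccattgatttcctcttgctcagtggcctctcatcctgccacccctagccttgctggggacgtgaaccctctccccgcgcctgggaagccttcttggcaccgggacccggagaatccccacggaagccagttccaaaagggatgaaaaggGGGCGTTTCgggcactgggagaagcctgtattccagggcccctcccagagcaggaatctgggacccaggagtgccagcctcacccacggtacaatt
TNFAIP3, chr6:137867009-137867308, plus strand: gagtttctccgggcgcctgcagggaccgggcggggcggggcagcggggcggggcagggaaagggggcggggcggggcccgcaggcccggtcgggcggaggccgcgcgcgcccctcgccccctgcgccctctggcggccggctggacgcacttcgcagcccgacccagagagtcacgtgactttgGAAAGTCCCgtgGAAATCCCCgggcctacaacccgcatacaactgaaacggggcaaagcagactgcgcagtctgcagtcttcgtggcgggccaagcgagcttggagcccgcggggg
SERPINB2, chr18:63887455-63887754, plus strand: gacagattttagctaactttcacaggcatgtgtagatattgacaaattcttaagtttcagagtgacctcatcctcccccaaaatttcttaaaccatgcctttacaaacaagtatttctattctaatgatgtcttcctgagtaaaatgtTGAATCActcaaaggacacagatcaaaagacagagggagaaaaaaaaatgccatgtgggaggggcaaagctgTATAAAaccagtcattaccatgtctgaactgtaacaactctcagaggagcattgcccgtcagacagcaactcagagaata
F3, chr1:94541710-94542009, minus strand: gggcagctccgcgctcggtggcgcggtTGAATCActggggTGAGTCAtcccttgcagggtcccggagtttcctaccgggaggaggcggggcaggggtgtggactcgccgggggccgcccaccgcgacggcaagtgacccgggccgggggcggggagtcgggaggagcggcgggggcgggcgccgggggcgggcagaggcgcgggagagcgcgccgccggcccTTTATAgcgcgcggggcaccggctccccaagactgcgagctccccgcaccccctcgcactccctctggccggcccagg
AREG, chr4:74444886-74445185, plus strand: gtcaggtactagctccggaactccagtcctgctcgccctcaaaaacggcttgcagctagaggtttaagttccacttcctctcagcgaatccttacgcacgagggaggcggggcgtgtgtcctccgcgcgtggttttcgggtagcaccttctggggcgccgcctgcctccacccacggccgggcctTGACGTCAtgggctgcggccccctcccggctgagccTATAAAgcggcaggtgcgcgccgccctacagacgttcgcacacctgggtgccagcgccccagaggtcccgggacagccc

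The TNFAIP3 window held 2 NF-kB matches, beginning 66 and 54 bases before the start. The SERPINB2 window held 1 AP-1 match at 102 bases before the start, and the F3 window held 2, at 223 and 210 bases. AREG had 1 cyclic AMP response element 65 bases before the start, and the KLK10 window held 1 NF-kB match 46 bases before it. Over the 491 windows of called genes that were higher in slippage (359 of the 468 genes were matched by symbol), 7.94% held an AP-1 match, 5.30% an NF-kB match, 3.67% a cyclic AMP response element and 9.78% a TATAAA match. Over the 391 windows of the lower genes (243 of 312 matched), the shares were 7.16%, 7.16%, 1.28% and 6.39%, over the 12523 windows of all tested genes 5.25%, 4.82%, 2.83% and 5.99%, and over all 35116 RefSeq windows 7.71%, 4.78%, 1.85% and 11.5%. The AP-1 and TATAAA shares of the higher genes thus lay above those of the tested genes, and the lower genes exceeded them as well. A match describes these letters and not a bound site.

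**Figure D2:**
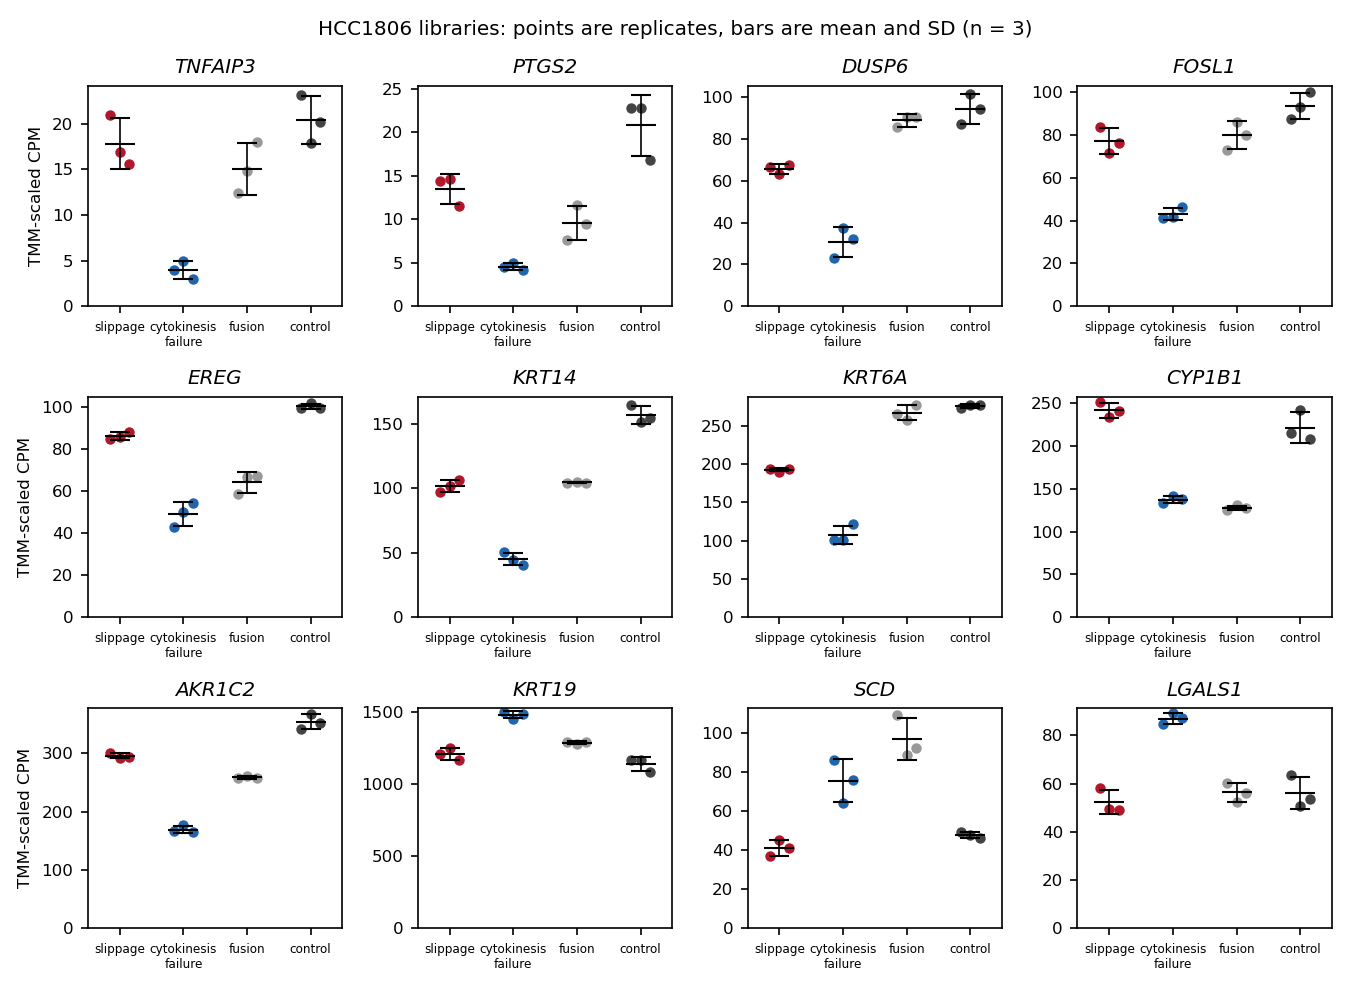
TMM-scaled CPM of 12 genes in the 3 replicates each of the slippage, cytokinesis failure, fusion and control populations of HCC1806, with bars at the mean and SD. In TNFAIP3, PTGS2, DUSP6, FOSL1, EREG, KRT14, KRT6A, CYP1B1 and AKR1C2 the slippage points lie above the cytokinesis failure points, and in KRT19, SCD and LGALS1 below them; control lies nearer to slippage than to cytokinesis failure in all 12.

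Basal and squamous keratinocyte genes formed the list with the most calls by number. Of 30 tested, 12 rose and 2 fell in slippage (median 0.18), a share of 46.7% against 6.80% of all tested genes. By share, ERK feedback genes stood higher at 53.3%, and immediate early genes were close at 45.0%. KRT14, the keratin of basal keratinocytes, had 96.9, 101 and 107 CPM in the slippage libraries, against 50.3, 44.3 and 40.5 CPM in the cytokinesis failure libraries. It was the largest change of any keratin named here, at 1.17 ± 0.078 (adjusted p = 3.78e-22). KRT6A, a keratin of activated keratinocytes, had 194, 190.5 and 194 CPM in the slippage libraries, against 102, 100.4 and 122 CPM in the cytokinesis failure libraries, a change of 0.84 ± 0.059 (adjusted p = 7.12e-21). The kallikrein protease KLK10 had 18.0, 16.9 and 14.7 CPM in the slippage libraries, against 6.97, 6.00 and 5.68 CPM in the cytokinesis failure libraries, a change of 1.41 ± 0.20 (adjusted p = 1.48e-07). LAMB3, a subunit of the laminin that anchors basal cells to the basement membrane, had 239.9, 234 and 215 CPM in the slippage libraries, against 154, 155 and 159.6 CPM in the cytokinesis failure libraries, a change of 0.56 ± 0.054. The other way went KRT5, the partner of KRT14 in basal filaments, which fell to 384 ± 19.4 CPM in slippage cells, against 453 ± 21.2 CPM in cytokinesis failure cells (log2 change -0.24 ± 0.043, adjusted p = 3.19e-05). TP63, the transcription factor of basal identity, was not called, at 29.6 ± 1.70 CPM in slippage cells and 29.4 ± 5.75 CPM in cytokinesis failure cells (adjusted p = 0.979). Leaving out each library left 10 to 12 higher calls in this list, and DESeq2 made 8.

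Luminal and simple epithelial genes leaned the other way. Of 30 tested, 1 rose and 6 fell (median -0.10). KRT19, a keratin of simple epithelia, had 1209, 1250 and 1170 CPM in the slippage libraries, against 1503, 1453 and 1489 CPM in the cytokinesis failure libraries. All slippage libraries were lower, by a log2 change of -0.29 ± 0.033 (adjusted p = 5.84e-11). The epithelial transcription factor ELF3 had 41.4, 41.1 and 42.7 CPM in the slippage libraries, against 65.5, 59.7 and 63.0 CPM in the cytokinesis failure libraries, a change of -0.59 ± 0.09 (adjusted p = 7.64e-07), and the secretory protein disulphide isomerase AGR2 changed by -0.34 ± 0.067 (adjusted p = 0.000242). The member that rose was SLPI, a secreted protease inhibitor (0.47 ± 0.11). DSP, the desmosomal plaque protein desmoplakin from the list of epithelial identity, fell as well (-0.21 ± 0.04). Of 15 tested mesenchymal genes, none rose and 2 fell (median -0.11), the matrix glycoprotein tenascin-C (TNC, -0.90 ± 0.21) and DKK3, a secreted Dickkopf-related protein (-0.70 ± 0.21). DKK3 lost its call without any of 5 libraries, slippage replicate 3 being the exception (adjusted p 0.0532 to 0.198), and TNC on log2(TPM + 0.1).

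Adhesion genes and Hippo targets showed calls in both directions. Of 29 tested integrins, laminins and focal adhesion genes, 6 rose and 3 fell (median 0.06), LAMB3 being counted here as well. ITGA2, the collagen-binding integrin subunit, had 58.6, 69.1 and 69.8 CPM in the slippage libraries, against 40.8, 34.7 and 44.0 CPM in the cytokinesis failure libraries, a change of 0.72 ± 0.09 (adjusted p = 2.13e-09), and the hyaluronan receptor CD44 rose by 0.25 ± 0.033, a call lost on log2(TPM + 1). Of 29 tested genes of YAP and TAZ, the effectors that Hippo signalling restrains, 7 rose and 2 fell (median 0.09). The co-activator TAZ itself (WWTR1) rose by 0.47 ± 0.071 and the target ANKRD1 by 0.55 ± 0.092, whereas IGFBP3, which binds insulin-like growth factors, had 399, 368 and 386 CPM in the slippage libraries, against 569.8, 507 and 531 CPM in the cytokinesis failure libraries, a change of -0.48 ± 0.044 (largest adjusted p of the 3 = 8.1e-06). LATS2, the Hippo kinase that tetraploid cells can activate, was not called, at 14.4 ± 3.25 CPM in slippage cells and 15.3 ± 1.58 CPM in cytokinesis failure cells (adjusted p = 0.89). The list had 4 higher calls without cytokinesis failure replicate 1 or 2 and with DESeq2, and 3 on log2(TPM + 1). Of 25 tested TGF-beta and ID genes, 5 rose and 5 fell (median -0.01), among them the ligand TGFB2 (-0.61 ± 0.13), the inhibitor of differentiation ID3 (-0.27 ± 0.043) and BMP4 (-0.54 ± 0.12) among the lower and the feedback inhibitor PMEPA1 (0.32 ± 0.067) among the higher. BMP4 lost its call without cytokinesis failure replicate 1 (adjusted p = 0.0576), TGFB2 on log2(TPM + 0.1) and PMEPA1 on log2(TPM + 1). The counts of this list rest on single libraries: leaving out each gave 1 to 5 higher and 2 to 4 lower, with 1 higher without slippage replicate 2, 2 without slippage replicate 1 and 3 without cytokinesis failure replicate 1 or 3, and with 2 lower without cytokinesis failure replicate 1 and 3 without cytokinesis failure replicate 2 or 3 or slippage replicate 2 or 3. DESeq2 called 3 higher and 3 lower, and log2(TPM + 1) 0 higher and 5 lower.

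**Figure D3:**
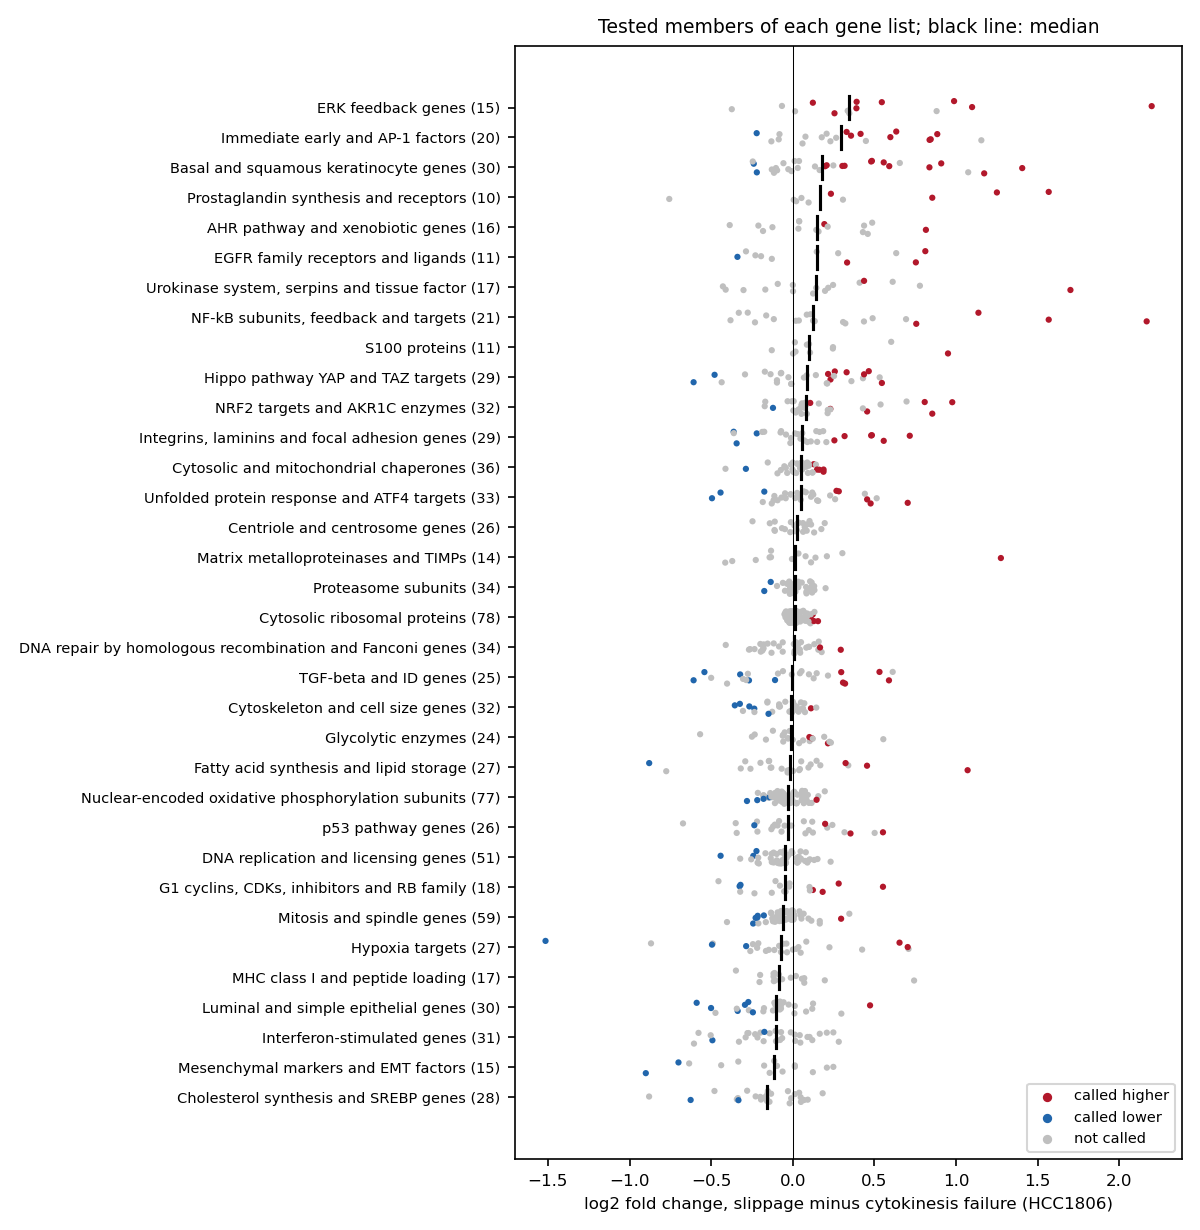
Each row is 1 of 34 gene lists with its number of tested members, each point the log2 fold change of slippage minus cytokinesis failure of a member in HCC1806, and the black line the median. ERK feedback genes and immediate early genes have the highest medians, 0.35 and 0.30, and cholesterol synthesis genes the lowest, -0.16; red points were called higher, blue points lower and grey points not called.

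Beyond these lists, the largest rises were in genes of varied function. DHRS9, a dehydrogenase of retinol and steroids, had 9.26, 10.8 and 11.5 CPM in the slippage libraries, against 2.49, 3.13 and 3.95 CPM in the cytokinesis failure libraries, a change of 1.71 ± 0.25 (adjusted p = 2.3e-07). GREM1, a secreted antagonist of bone morphogenetic proteins, had 42.5, 39.5 and 41.8 CPM in the slippage libraries, against 18.7, 17.5 and 15.3 CPM in the cytokinesis failure libraries, a change of 1.27 ± 0.13 (adjusted p = 6.55e-13). Both were free of overlap. FYB, an adaptor protein known from T cells, had 41.4, 40.1 and 37.5 CPM in the slippage libraries, against 13.2, 16.7 and 15.8 CPM in the cytokinesis failure libraries, a change of 1.38 ± 0.13 (adjusted p = 8.87e-15). HAS2, which makes the matrix polysaccharide hyaluronan, rose by 1.28 ± 0.18, the heparan sulfate sulfotransferase HS3ST1 by 1.17 ± 0.19, the carnitine transporter SLC16A9 by 1.52 ± 0.31 and FRMD3, a protein with a FERM domain, by 1.30 ± 0.21 (largest adjusted p of these 4 = 0.000367). KCTD12, an auxiliary subunit of GABA-B receptors, rose by 1.09 ± 0.28, at 7.28 ± 1.71 CPM in slippage cells and 3.37 ± 0.565 CPM in cytokinesis failure cells (adjusted p = 0.00789), but lost the call without cytokinesis failure replicate 3 or slippage replicate 2 (adjusted p 0.0618 to 0.0941) and on log2(TPM + 1). HMGA2, a chromatin protein of fetal tissue and one of the markers of MDA-MB-231, had 81.2, 75.2 and 80.7 CPM in the slippage libraries, against 48.1, 60.5 and 50.2 CPM in the cytokinesis failure libraries, a change of 0.58 ± 0.081. S100A14, a calcium-binding protein, rose by 0.95 ± 0.20 and was the only one called of 11 tested S100 genes (median 0.10), 9.09% against 6.80% of all tested genes.

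The largest falls were in genes of lower level. METTL7A, a methyltransferase-like protein of lipid droplets, had 4.08, 7.33 and 7.50 CPM in the slippage libraries, against 16.7, 16.2 and 16.3 CPM in the cytokinesis failure libraries. Slippage cells were lower throughout, by a log2 change of -1.39 ± 0.21 (adjusted p = 6.09e-07). TMEM159, which encodes the lipid droplet assembly factor promethin, had 3.54, 4.46 and 4.90 CPM in the slippage libraries, against 9.71, 9.39 and 11.9 CPM in the cytokinesis failure libraries, a change of -1.26 ± 0.25 (adjusted p = 0.000297), and HCAR2, the niacin receptor, 3.81, 6.37 and 9.80 CPM in the slippage libraries, against 15.9, 11.7 and 13.3 CPM in the cytokinesis failure libraries, a change of -1.04 ± 0.23 (adjusted p = 0.00109). FAM115A stood at 13.3, 16.2 and 19.3 CPM in the slippage libraries, against 35.9, 26.9 and 31.4 CPM in the cytokinesis failure libraries and changed by -0.95 ± 0.14 (adjusted p = 5.96e-07). BOLA1, a mitochondrial protein of the BolA family, changed by -1.15 ± 0.28 and SLC1A3, a glutamate transporter, stood at 4.78 ± 1.15 CPM in slippage cells and 9.56 ± 1.48 CPM in cytokinesis failure cells. FAM3B (-1.09), the MYC antagonist MXD3 (-1.04), FAM117A (-1.03), the p38 kinase activator MAP2K6 (-0.97), the mitochondrial fission adaptor MIEF2 (-0.94), C14orf159 (-0.93), LYPD1 (-0.91) and the Notch co-activator MAML2 (-0.90) complete the 15 lower genes of the naming rule, with TNC. These 8 and SLC1A3 had mean levels under 10 CPM in both populations, and each lost its call without at least 2 of the 6 libraries, MIEF2 and MAP2K6 without 4 and C14orf159 without 5 (adjusted p 0.0509 to 0.249 in those fits). Each of the 6 libraries was decisive for at least 2 of the 9, and MIEF2 and C14orf159 lost the call on log2(TPM + 1) too. On centred log2(TPM + 1), HCAR2 lost its call, as did FAM3B, SLC1A3, MAP2K6, MIEF2, C14orf159, LYPD1 and MAML2 (limma adjusted p 0.0519 to 0.119). LGALS1, the carbohydrate-binding protein galectin-1, taken from chromosome arm 22q by the rule, had 58.0, 49.7 and 49.0 CPM in the slippage libraries, against 84.7, 89.2 and 87.2 CPM in the cytokinesis failure libraries, a change of -0.73 ± 0.081 (adjusted p = 2.56e-11).

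Among metabolic and stress genes, calls fell on single enzymes and on a minority of each list. CYP1B1, a cytochrome P450 induced through the aryl hydrocarbon receptor, had 251, 234 and 240.2 CPM in the slippage libraries, against 133, 142 and 138 CPM in the cytokinesis failure libraries, a change of 0.82 ± 0.056 (adjusted p = 3.33e-21). Of 16 tested genes of that receptor's pathway, it and the receptor gene AHR were called (median 0.15), AHR by 0.19 ± 0.061, a call lost on leaving out replicate 1 or 2 of either population (adjusted p 0.0609 to 0.317), on log2(TPM + 1) and with DESeq2. AKR1C2, an aldo-keto reductase of steroids, had 300.4, 292 and 294 CPM in the slippage libraries, against 166, 176 and 165 CPM in the cytokinesis failure libraries, a change of 0.81 ± 0.049 (adjusted p = 2.69e-24). AKR1C1 (0.98 ± 0.18) and AKR1C3 rose with it, and reads of these near-identical paralogs may be shared between them, so their separate values are uncertain. Of 32 tested NRF2 targets and AKR1C genes, 6 rose and 1 fell (median 0.08), and of 33 tested genes of the unfolded protein response and ATF4, 5 rose and 3 fell (median 0.05). The hormone stanniocalcin-2 (STC2) had 86.9, 86.9 and 91.1 CPM in the slippage libraries, against 51.8, 53.2 and 57.6 CPM in the cytokinesis failure libraries, a change of 0.70 ± 0.079, the cystine transporter SLC7A11 rose by 0.46 ± 0.055 and its partner chain SLC3A2 by 0.28 ± 0.043, while PHGDH, the first enzyme of serine synthesis, fell, at 112 ± 1.87 CPM in slippage cells and 152 ± 5.96 CPM in cytokinesis failure cells (-0.44 ± 0.062, largest adjusted p of the 4 = 6.97e-07).

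In lipid metabolism, SCD, the desaturase that makes oleic acid, had 37.3, 45.5 and 41.2 CPM in the slippage libraries, against 86.4, 64.4 and 76.1 CPM in the cytokinesis failure libraries. It was the clearest fall in the lipid lists, at -0.88 ± 0.095 (adjusted p = 1.95e-10). G0S2, an inhibitor of lipolysis, had 9.26, 13.4 and 12.7 CPM in the slippage libraries, against 4.23, 5.74 and 6.67 CPM in the cytokinesis failure libraries, a change of 1.07 ± 0.22 (adjusted p = 0.0004), and the lipid droplet coat protein PLIN2 (0.32 ± 0.075) and the fatty acid elongase ELOVL6 (0.45 ± 0.11) rose. Thus 3 of 27 tested genes of fatty acid synthesis and storage rose and 1 fell (median -0.02). Among the 34 lists in the plot of log2 changes by gene list, cholesterol synthesis genes had the lowest median, -0.16 over 28 tested. None was higher and 2 were lower, among them INSIG1 (-0.63 ± 0.18). The share called was 7.14%, close to the 6.80% of all genes. INSIG1 lost its call without replicate 1 or 2 of either population (adjusted p 0.0582 to 0.133), and PLIN2 and ELOVL6 on log2(TPM + 1).

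Genes of energy metabolism, translation, protein folding and degradation, and hypoxia targets held calls too, against the 6.80% of all genes. The share called was 12.5% of glycolytic enzymes, 16.7% of chaperones and 18.5% of hypoxia targets. It was 6.49% of oxidative phosphorylation subunits, 5.13% of ribosomal proteins and 5.88% of proteasome subunits, all under that of all genes. Among 24 tested glycolytic enzymes 3 rose (PFKP 0.22, ENO1 0.12, LDHA 0.10), and among 78 cytosolic ribosomal proteins 4 (median 0.01), RPS3A (0.15) and RPL21 (0.12) among them. Of 36 tested chaperones 5 rose and 1 fell (median 0.05), with HSPA8 (0.19 ± 0.032), HSPD1 (0.19 ± 0.032), HSPH1 (0.16) and HSP90AA1 (0.13) among the higher. Of 77 tested nuclear-encoded subunits of oxidative phosphorylation 1 rose, CYCS (0.15), and 4 fell (median -0.03), among them UQCR10 (-0.22 ± 0.048), COX5B (-0.18) and NDUFB5 (-0.28). Of 34 tested proteasome subunits 2 fell, PSME1 (-0.17) and PSMB6 (-0.14). Of 27 tested hypoxia targets 2 rose and 3 fell (median -0.07), the falls being EPAS1, the hypoxia factor HIF-2 alpha (-0.29 ± 0.057), DDIT4 (-0.49) and ANKRD37 (-1.51), whose mean level lay under the minimum of the rule for the largest falls. All of these apart from HSPA8, HSPD1, RPS3A, UQCR10 and EPAS1 lost the call without at least 1 library (adjusted p 0.0519 to 0.289), LDHA and PSMB6 without any 1 of the 6. Each of the 6 libraries was decisive for at least 3 of them. On log2(TPM + 1) none of the higher genes of this paragraph was called, nor was PSME1, and DESeq2 called none of LDHA, NDUFB5, PSME1 and PSMB6.

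Calls in the lists of the division machinery were set against the 6.80% of all genes. The share called was 0 of 26 for centrioles, 3 of 51 for replication (5.88%), 6 of 59 for mitosis (10.2%) and 6 of 32 for the cytoskeleton (18.8%). Whether these shares differ from that of all genes or from each other was not tested. Of 26 tested centriole and centrosome genes, edgeR and DESeq2 called none (median 0.03, 1 at an unadjusted p below 0.05), and the centriole kinase PLK4 stood at 18.3 ± 2.35 CPM in slippage cells and 17.3 ± 1.21 CPM in cytokinesis failure cells (adjusted p = 0.866). Of 59 tested mitotic genes 1 rose and 5 fell (median -0.06). CENPE, a kinetochore motor, had 299, 296 and 263 CPM in the slippage libraries, against 227, 239 and 233 CPM in the cytokinesis failure libraries, a change of 0.30 ± 0.05, whereas NUSAP1 (-0.18), securin (PTTG1, -0.22) and MYBL2 (-0.21) fell. KIF18A, a kinesin on which cells with doubled genomes can depend, was not called, with 76.0, 65.6 and 64.6 CPM in the slippage libraries, against 59.3, 66.8 and 58.6 CPM in the cytokinesis failure libraries (log2 change 0.17 ± 0.082, adjusted p = 0.253), nor was KIFC1, which clusters extra centrosomes (0.00 ± 0.085). Of 51 tested replication genes none rose and 3 fell (median -0.05), among them PCNA (-0.24) and POLA2 (-0.44). STMN1, a destabiliser of microtubules, had 597, 579 and 609 CPM in the slippage libraries, against 764, 752 and 719 CPM in the cytokinesis failure libraries, a change of -0.32 ± 0.037 (adjusted p = 5.84e-11), and the tropomyosins TPM1 (-0.35 ± 0.052) and TPM2 (-0.27 ± 0.053) fell as well. Thus 5 of 32 tested cytoskeletal genes fell and 1 rose (median -0.01), the actin gene ACTG1 (0.11). NUSAP1 lost its call without cytokinesis failure replicate 1 (adjusted p = 0.0600), PCNA and POLA2 without that library or slippage replicate 2 (0.0612 to 0.119), and PTTG1, MYBL2 and ACTG1 without 3 or 4 libraries (0.0507 to 0.141), and CENPE, MYBL2 and ACTG1 lost theirs on log2(TPM + 1). DESeq2 called none of PTTG1, MYBL2, PCNA and POLA2. By list, it called 1 higher and 1 lower in the mitotic list, 0 in the replication list, and 1 higher and 3 lower in the cytoskeletal list. Without cytokinesis failure replicate 1 the lower calls numbered 0 in the mitotic list, 1 in the replication list and 3 in the cytoskeletal list, without slippage replicate 1 there was 1 in the mitotic list, and without slippage replicate 2 there were 2 in the mitotic list and 0 in the replication list.

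CDKN1A, the p21 inhibitor of cyclin-dependent kinases and a p53 target, had 34.0, 29.3 and 32.9 CPM in the slippage libraries, against 20.9, 19.6 and 25.2 CPM in the cytokinesis failure libraries. The libraries did not overlap, and the log2 change was 0.55 ± 0.12 (adjusted p = 0.00142). Of 26 tested p53 pathway genes 3 rose and 1 fell (median -0.03), the others being AEN (0.35), SFN (0.20) and, lower, PHLDA3 (-0.24). Of 18 tested regulators of G1 4 rose and 2 fell (median -0.05): CDK6 (0.28) and CCND1 (0.12) were among the higher, CDKN2D (-0.32) and the retinoblastoma gene RB1 (-0.33) the lower. All of these but CDKN1A lost the call without at least 1 library, CCND1 without 5, CDK6 and RB1 without 4, PHLDA3 without 3, SFN and CDKN2D without 2 and AEN without slippage replicate 3 (adjusted p 0.0518 to 0.257 over these fits). DESeq2 called none of AEN, SFN, PHLDA3, CDKN2D, RB1 and CCND1, and log2(TPM + 1) none of AEN, SFN, CDK6 and CCND1. Cyclin E1 (CCNE1) was not called (0.10 ± 0.093, adjusted p = 0.599), and CCND2 did not pass the filter. Of 34 tested genes of homologous recombination and the Fanconi pathway 2 rose and none fell (median 0.01), a share of 5.88%, under the 6.80% of all tested genes. Leaving out each library gave 0 to 2 higher calls (medians -0.06 to 0.00), 0 without cytokinesis failure replicate 1 or 2 or slippage replicate 2 and 1 without cytokinesis failure replicate 3 or slippage replicate 1. DESeq2 made 0 calls in this list, and log2(TPM + 1) 1 lower call. The cytidine deaminase APOBEC3B had 10.1, 7.96 and 10.4 CPM in the slippage libraries, against 8.47, 7.30 and 10.4 CPM in the cytokinesis failure libraries, with overlapping groups and no call (0.12 ± 0.21, adjusted p = 0.823).

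The control and fusion populations, which took no part in the contrast, lay nearer to slippage than to cytokinesis failure for most of these genes. Control averaged nearer to slippage than to cytokinesis failure in 414 of the 468 higher genes (88.5%) and 277 of the 312 lower genes (88.8%), against 63.1% of all tested genes. The fusion population did so in 73.9% and 69.2%, against 56.9%. The called genes were picked for a gap between slippage and cytokinesis failure, so the shares of all tested genes are not a like baseline. DUSP6 and KRT14 show the pattern in both populations, whereas ELF3 shows it in control and lay slightly nearer to cytokinesis failure in fusion. DUSP6 had 85.5, 90.6 and 90.5 CPM in fusion and 87.1, 101 and 94.1 CPM in control libraries, all above slippage. KRT14 had 104, 105 and 104 CPM in fusion and 164, 151 and 154 CPM in control libraries, and ELF3, which was lower in slippage, 54.6, 48.5 and 56.4 CPM in fusion and 29.4, 32.2 and 32.1 CPM in control libraries. Slippage thus lay between cytokinesis failure and control for KRT14 and ELF3. Not every gene followed: CYP1B1 had 126, 131 and 127 CPM in fusion libraries, near cytokinesis failure, and 215, 242 and 208 CPM in control libraries, near slippage, while SCD was highest in fusion, at 109, 89.1 and 92.6 CPM, against 49.3, 47.7 and 46.6 CPM in control libraries.

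**Figure D4:**
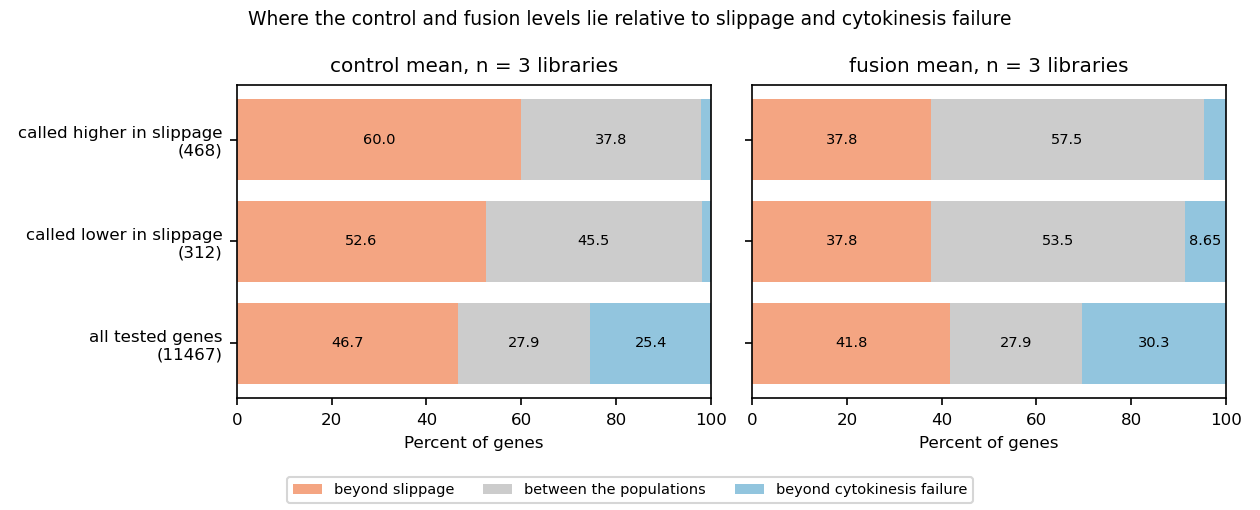
Stacked bars give the percent of genes whose mean log2 CPM in control (left) or fusion (right) lay beyond slippage as seen from cytokinesis failure, between the 2 populations, or beyond cytokinesis failure, for the 468 higher, the 312 lower and all 11467 tested genes. Control lay beyond cytokinesis failure in 2.14% of the higher and 1.92% of the lower genes, against 25.4% of all genes, which were not picked for a gap between the populations.

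Against control, 382 genes (3.33%) were called in slippage and 1950 (17.0%) in cytokinesis failure. These contrasts share the control libraries, so their values are set side by side only. The genes counted below were picked by their slippage and cytokinesis failure levels, which also enter these contrasts. The direction of their calls was thus partly fixed by that choice, and the shares of all tested genes are not a like baseline. Of the 468 genes higher in slippage than in cytokinesis failure, 76 were called between slippage and control (14 higher and 62 lower, against 1.53% and 1.81% of all tested genes) and 371 between cytokinesis failure and control (1 higher and 370 lower, against 8.37% and 8.63% of all tested genes), with median log2 changes of -0.03 and -0.32. Of the 312 lower genes, 31 were called between slippage and control (23 higher and 8 lower) and 231, all higher, between cytokinesis failure and control, with medians of 0.01 and 0.36. For TNFAIP3 the 2 log2 changes from control were -0.20 in slippage (adjusted p = 0.644) and -2.37 in cytokinesis failure (adjusted p = 4.74e-16), for LGALS1 -0.10 and 0.63, the second alone called, and for KRT6A -0.52 and -1.36, both called. PTGES departed from control in slippage (0.21, adjusted p = 8.77e-05) and was not called in cytokinesis failure (-0.02, adjusted p = 0.736), and FRMD3 was called in both with opposite signs (0.64 and -0.67). PTGES and FRMD3 were picked here after their values were seen. APOBEC3B, not called between the routes, was above control in both, by 1.06 in slippage and 0.94 in cytokinesis failure (adjusted p = 0.00424 and 0.00346). The list of ERK feedback genes had median log2 changes of -0.20 in slippage and -0.50 in cytokinesis failure, and the immediate early genes -0.11 and -0.34. On the first principal component (21.6% of the variance of log2 CPM) slippage lay at 2.92 to 5.98, between cytokinesis failure at 14.4 to 23.4 and control at -12.0 to -6.25.

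In MDA-MB-231, 363 of 11424 tested genes (3.18%) were called between slippage and cytokinesis failure, 240 higher (2.10%) and 123 lower (1.08%). Of the 780 genes called in HCC1806, 703 could be tested in MDA-MB-231. Of these 703, 50 (7.11%) were called there, against 3.18% of all genes tested in that line. They are 6.41% of the HCC1806 calls and 13.8% of the MDA-MB-231 calls, 16 with the same sign and 34 with the opposite sign. This overlap was not tested. The difference between the lines, tested over all 24 libraries, was called for 663 of 12563 genes (5.28%), 324 with a higher log2 change in HCC1806 (2.58%) and 339 with a lower one (2.70%). Of the 468 higher HCC1806 genes 194 were among the first, and of the 312 lower genes 121 among the second. These shares use the HCC1806 libraries on both sides.

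ERK feedback and interferon-stimulated genes show the contrast between the lines. In HCC1806 8 of 15 ERK feedback genes rose, in MDA-MB-231 edgeR called none of 14 in either direction (median -0.05, 5 at an unadjusted p below 0.05), and for 6 the difference between lines was called. DUSP6 changed by 1.10 in HCC1806 and 0.03 in MDA-MB-231 (difference 1.07, adjusted p = 1.71e-08), and FOSL1 by 0.84 and -0.05 (difference 0.89, adjusted p = 5.82e-09). Of 31 interferon-stimulated genes tested in HCC1806, none rose and 2 fell (median -0.10), a share of 6.45%, close to the 6.80% of all genes. In MDA-MB-231 16 of 30 rose and none fell (median 0.48), and for 13 the difference was called, each lower in HCC1806. IFIT1, an interferon-induced protein that binds foreign RNA, had 27.8, 29.9 and 22.8 CPM in the slippage libraries, against 39.1, 38.6 and 35.3 CPM in the cytokinesis failure libraries in HCC1806, and changed by -0.49 there and by 0.77 in MDA-MB-231 (difference -1.27, adjusted p = 1.09e-09). IFITM3, a membrane protein that restricts virus entry, behaved alike, at -0.17 and 0.27. Both HCC1806 calls were lost without slippage replicate 3 (adjusted p 0.0668 and 0.0827), that of IFITM3 also without cytokinesis failure replicate 2 (0.0743) and with DESeq2. Of 17 genes of MHC class I presentation tested in HCC1806, edgeR and DESeq2 called none (median -0.08, 3 at an unadjusted p below 0.05) and limma on log2(TPM + 1) called 1 lower, whereas 7 of 15 rose in MDA-MB-231 (median 0.30, difference called for 9).

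Of 28 cholesterol genes 2 fell in HCC1806 and 5 rose in MDA-MB-231 (median 0.18), with the difference called for 7, whereas of the genes of fatty acid synthesis and storage 3 rose and 1 fell in HCC1806 and 1 rose and none fell in MDA-MB-231. INSIG1, which restrains cholesterol synthesis, changed by -0.63 in HCC1806 and 0.76 in MDA-MB-231 (difference -1.40), and SCD by -0.88 and 0.38 (difference -1.26, adjusted p = 3.58e-09). AGR2 (-0.34 and 0.59), DSP (-0.21 and 0.63), TGFB2 (-0.61 and 0.31) and EPAS1 (-0.29 and 0.34) were further genes called with opposite signs in HCC1806 and MDA-MB-231. A smaller group went the same way in both lines: AREG (0.75 and 0.48), ANKRD1 (0.55 and 0.49), ID3 (-0.27 and -0.48) and AKR1C2 (0.81 and 1.83). Of the genes that the rule picked for the size of the difference between lines, HAS2 and TNFAIP3 were above the floor in both lines. HAS2 had the larger difference, at 1.28 in HCC1806 and -0.41 in MDA-MB-231 (difference 1.70, adjusted p = 1.07e-06). The naming rule also picked WDR72, SNHG18, KLHDC8B, OASL, LOC102723901, MAP7 and SPRY4, each of which had at least 1 library with at most 3 counts in HCC1806 or in MDA-MB-231, so no fold change is given for them. BOLA1 had 1 such library too, in MDA-MB-231 cytokinesis failure, and its difference is given below with that limit.

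**Figure D5:**
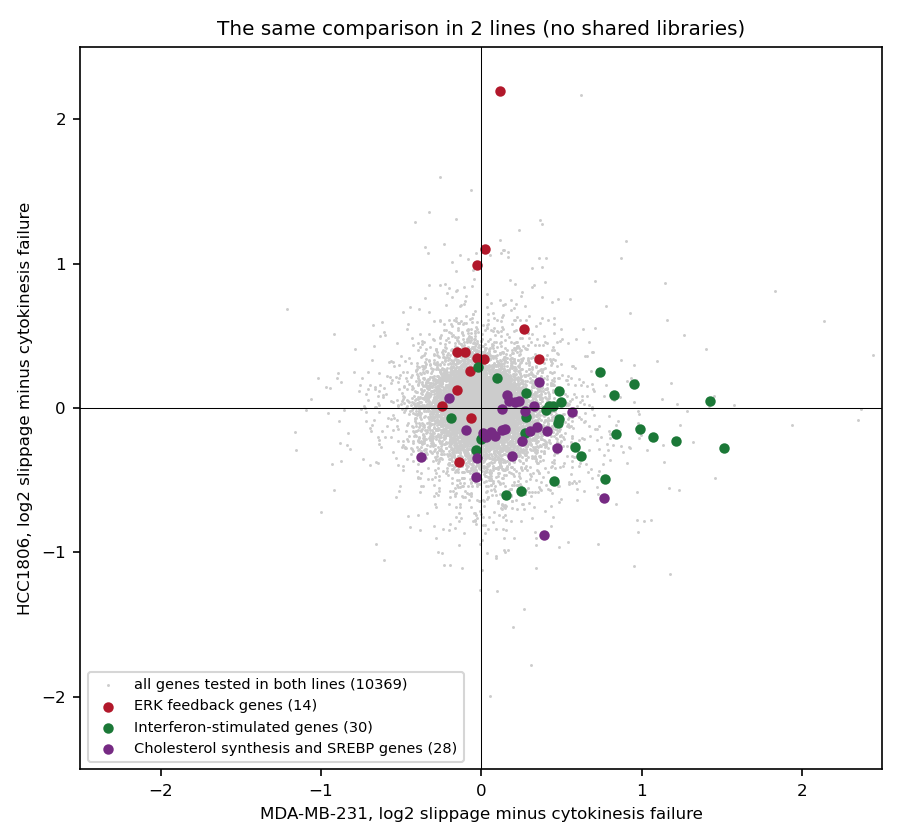
Each grey point is 1 of the 10369 genes tested in both lines, with the log2 fold change of slippage minus cytokinesis failure in MDA-MB-231 on the horizontal axis and in HCC1806 on the vertical axis; 6 genes lie outside the limits. ERK feedback genes (red) spread upward along the HCC1806 axis, interferon-stimulated genes (green) to the right along the MDA-MB-231 axis, and most cholesterol genes (purple) lie right of 0.

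By chromosome arm the medians differed little, while the share of called genes varied more. Arm 4q had the highest median among arms with at least 20 tested genes, 0.08 over 257 genes, of which 29 rose and 6 fell (13.6% called, against 6.80% of all genes). Leaving out each library gave 15 to 24 higher, 15 without cytokinesis failure replicate 1, 17 without slippage replicate 2 and 18 without cytokinesis failure replicate 3, and 4 to 5 lower. DESeq2 called 12 higher and 2 lower, and log2(TPM + 1) 6 higher and 5 lower with a median of -0.0019. The arm holds EREG, AREG and SLC7A11, the 3 called genes of smallest adjusted p on it. The arms 10p, 11p and 13q came next, with medians of 0.04, 0.03 and 0.03. Of their genes 12.6%, 11.7% and 10.5% were called, mostly higher, and DESeq2 called 6, 8 and 8 higher. On log2(TPM + 1) 3, 2 and 2 were called higher and 1, 5 and 4 lower. Arm 22q had the lowest median, -0.04 over 263 genes, with 5 higher and 9 lower (5.32% called, under the 6.80% of all genes). Among them were LGALS1, UQCR10 and, higher, the ribosome biogenesis gene RRP7A (0.20 ± 0.042, a call lost on log2(TPM + 1)). The counts of this arm were 1 to 6 higher and 5 to 10 lower on leaving out each library, 1 higher without slippage replicate 2, 2 higher without slippage replicate 3 or any 1 cytokinesis failure library, and 5 lower without slippage replicate 1, and DESeq2 called 1 higher and 3 lower. The arms 6p, Xq and 8p had medians of -0.04, -0.03 and -0.03. All of these medians are under 0.1 on the log2 scale, and copy number was not analysed here.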

How the data were processed

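Gene expression was measured by TAGseq, a 3′ tag RNA sequencing of polyadenylated RNA, per the labels' protocols, and the submitters' processing notes name STAR, Salmon and GRCh38 (hg38), with versions not given in the sources used here. The authors deposited Salmon estimated counts per gene and TPM per gene, in 1 table each for the 24 libraries of 3 replicates per group. All columns were mapped to samples by name. Of the estimated counts 4.41% were not whole, and all were rounded. A further 61 genes repeat the name of another and were kept apart by ID. Low-pass genome sequencing and mitochondrially encoded transcripts were not used here.

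The 12 HCC1806 libraries were fitted together in 4 groups with edgeR 4.0.16 (R 4.3.3; filterByExpr, TMM scaling, robust quasi-likelihood F test, Benjamini-Hochberg adjustment over all tested genes, threshold 0.05), and all 24 libraries in 8 groups for the difference between lines. A log2 fold change is slippage minus cytokinesis failure, its error the standard error, and a library's level a TMM-scaled CPM. An error after a mean CPM is an SD over 3 replicates. Log2 CPM for positions and principal components used a prior count of 2. Floors are 3 counts per library and cover counting error only, whereas standard errors and SDs include the spread between replicates. Alternatives were DESeq2 1.42.0, limma 3.58.1 on log2(TPM + 1) and log2(TPM + 0.1), RLE size factors, a fit of the compared libraries alone, no filter, a filter of 30 counts in 3 libraries, a replicate block and each replicate left out. Added after seeing the data were log2(TPM + 1) with library medians set to 1 value, and list counts with each replicate left out. A TPM fold change is on the log2(value + pseudocount) scale and understates that of low genes, and TPM assumes reads in proportion to gene length, which a 3′ tag does not give.

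The script was tested on simulated counts. For slippage against cytokinesis failure, with 11346 genes, it recovered 58 of 100 genes changed by 0.5 and 92 of 100 changed by 1 on the log2 scale, with 15 false calls (9.09% of calls). For the difference between lines, with 12124 genes, it recovered 38 and 61 of 100, with 2 false calls (1.98%).

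Named genes are the 15 higher and 15 lower with the largest change among called genes of mean log2 CPM of at least 2 without overlap, up to 4 members per list with the smallest adjusted p, 12 genes named whatever their values, 5 genes per direction for the difference between lines, and the 3 called genes of smallest adjusted p on the first and last chromosome arm. The genes, lists and members were chosen with earlier results of these data known. Chromosome positions and promoters came from RefSeq on GRCh38.p14, and 97.6% of tested genes were placed on an arm. Some genes that this rule picks are not reported here.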

Additional observations from a re-analysis of the deposited data

Results flagged for a closer look

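For the following genes the difference of the slippage minus cytokinesis failure change between HCC1806 and MDA-MB-231 was itself called by edgeR (adjusted p below 0.05), and each value is the log2 change in HCC1806 minus that in MDA-MB-231. Higher differences among growth factor response genes and ligands were 1.07 for DUSP6, 1.01 for DUSP4, 0.89 for FOSL1, 0.62 for IER3, 0.41 for MYC, 0.48 for PHLDA1, 0.32 for EPHA2, 0.97 for EREG and 0.65 for TGFA. Among genes of NF-kB, coagulation, matrix and adhesion they were 1.54 for TNFAIP3, 1.36 for RELB, 0.36 for F3, 1.70 for HAS2, 1.05 for HS3ST1, 0.52 for LAMB3, 0.84 for ITGA2, 0.23 for CD44 and 0.46 for WWTR1. Among genes of stress, metabolism and the cell cycle they were 0.69 for CDKN1A, 0.32 for CENPE, 0.49 for SLC7A11, 0.43 for SLC3A2, 0.21 for HSPA8, 0.37 for HSPD1, 0.23 for HSPH1, 1.10 for G0S2, 0.42 for PLIN2, 0.53 for ELOVL6, 0.96 for CYP1B1, 0.25 for ACTG1, 0.69 for HMGA2 and 0.94 for KCTD12.

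Lower differences among epithelial, matrix and signalling genes were -0.47 for KRT19, -0.93 for AGR2, -0.84 for DSP, -1.25 for TNC, -0.53 for IGFBP3, -0.92 for TGFB2, -0.52 for BMP4, -1.05 for MAML2, -0.74 for LGALS1, -0.29 for STMN1 and -0.49 for TPM1. Among interferon, division and hypoxia genes they were -1.27 for IFIT1, -0.45 for IFITM3, -0.54 for PTTG1, -0.63 for EPAS1, -0.55 for DDIT4 and -1.72 for ANKRD37. Among genes of lipids, mitochondria and other functions they were -1.26 for SCD, -1.40 for INSIG1, -1.66 for METTL7A, -1.37 for TMEM159, -2.33 for BOLA1, -1.67 for MIEF2, -1.47 for C14orf159, -0.30 for UQCR10, -0.24 for PSMB6 and -1.02 for AKR1C2. AKR1C2 rose in both lines, by 0.81 in HCC1806 and 1.83 in MDA-MB-231, where it averaged 11.8 ± 0.504 CPM in slippage and 3.19 ± 1.08 CPM in cytokinesis failure cells. BOLA1 had 3 to 11 counts in the MDA-MB-231 cytokinesis failure libraries, so that 1 library lies at the floor of 3 counts and the size of its difference is uncertain.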

How the results depend on the processing

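Of 127 named genes tested in HCC1806, 120 were called, 48 of them under every alternative, 10 more under every one that gave an adjusted p (DESeq2 gave them none), and 73 whichever replicate was left out. None of the 127 reversed, and 2 genes without a call, KIFC1 and TP63, changed sign with a shift above their standard error under at least 1 alternative. DESeq2 called 298 genes between slippage and cytokinesis failure, 200 higher and 98 lower, of which 297 were among the 780. It gave 3780 genes no adjusted p, 94 of the 780 among them. Limma called 372 (91 higher) on log2(TPM + 1), 349 (93 higher) on log2(TPM + 0.1) and 340 (199 higher, 141 lower) with library medians set to 1 value, an alternative added after seeing the data. Leaving out each replicate gave 421 to 620 genes, 259 to 380 higher and 162 to 240 lower. For the difference between lines DESeq2 called 409 genes, 171 lower, log2(TPM + 1) 349 (98 higher) and log2(TPM + 0.1) 304 (83 higher, 221 lower), and leaving out each replicate gave 452 to 588, 221 to 292 higher and 231 to 299 lower. RLE size factors, the fits of the compared libraries alone and both filters kept these counts within 1.5 times. The cause of these shifts was not tested.

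The labels give both populations replicate numbers but say nothing of what a shared number means. Deviations of same-numbered libraries correlated at -0.056, 0.071 and -0.050, so the numbers were not taken to pair them. With the replicate block 773 genes were called in HCC1806 (464 higher, 309 lower) and 638 for the difference between lines, and of the named genes IL8 (adjusted p = 0.0508) and CDK6 (0.0716) lost the call.

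At 3 libraries a group and this depth, changes of 0.5 on the log2 scale are often missed, so a gene without a call is not shown to be level.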
